A study of Mus musculus with 4 samples.

Results

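The Zeb2 locus was described in plasmacytoid dendritic cells (pDC) and in type 1 classical dendritic cells (cDC1) of the mouse. Its members were all open intervals and all footprints that overlapped the mm9 window from 44.70 to 45.20 Mb of chromosome 2, which holds Zeb2 at about 44.84 to 44.97 Mb on the minus strand and the sequence upstream of it. The window held 16 of 51941 pDC intervals and 20 of 83701 cDC1 intervals, which merged into 25 of 93615 regions. It held 78 of 312959 pDC footprints and 87 of 513689 cDC1 footprints. Regions are named here by the distance of their centre in kb from the upper bound of the gene, and because Zeb2 lies on the minus strand a positive distance is upstream of the gene.

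The study profiled open chromatin by Omni-ATAC-seq, in which the transposase Tn5 cuts accessible DNA, in 2 samples of pDC and 2 samples of cDC1. Both cell types were grown from mouse bone marrow with Flt3 ligand and sorted, pDC as CD11c+ CD11b- B220+ cells and cDC1 as CD11c+ CD11b+ XCR1+ cells according to the methods; the labels and the methods name no strain, age or genotype. The authors merged the samples of a cell type before footprinting and deposited 1 peak list and 1 footprint list for each, so each cell type was treated as 1 library, there was no replicate error and no p-value was computed. The labels do not say whether the 2 samples of a cell type came from separate cultures or animals.

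Zeb2 encodes a zinc finger protein that binds E-box motifs and mostly represses transcription, and it is best known from the transition of epithelial to mesenchymal cells. In mouse dendritic cells it is needed for normal numbers of pDC and is turned down in the cDC1 lineage, where the repressors Nfil3 and Id2 act. Its expression in mouse blood cells is known to depend on enhancers that lie far upstream of the gene, within the large gene desert beside it. Which of the regions below correspond to those enhancers was not assigned.

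In the reference annotation, build GRCm38.p6, the protein-coding neighbours of Zeb2 are Gtdc1 on the downstream side and Acvr2a on the upstream side, and the antisense gene Zeb2os and the microRNA gene Mir5129 overlap it. RefSeq lists 4 starts of Zeb2. The 250 bases before each start were searched on both strands for 8 short motifs of factors that act in dendritic cells. The general E-box CANNTG, 1 of the 8, alone occurred in 66.2% of 32817 mouse promoters of this length. Of the 4 starts, 2 held a match of any of the 8, which is no more than that share. The 250 bases before starts 2 and 3 overlap for the most part, so the 4 are not separate sequences. The 2 starts with a match are shown because the open regions around the 5' end of the gene are described below. The sequences are those of RefSeq, 5' to 3' on the minus strand, with GRCm38 coordinates and the matches in capitals.

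Zeb2 start 1, chr2:45117443-45117692: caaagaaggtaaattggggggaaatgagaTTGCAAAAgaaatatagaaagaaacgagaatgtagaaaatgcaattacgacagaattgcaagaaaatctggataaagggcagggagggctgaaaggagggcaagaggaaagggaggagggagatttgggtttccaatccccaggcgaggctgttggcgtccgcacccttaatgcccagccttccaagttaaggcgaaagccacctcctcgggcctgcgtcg

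Zeb2 start 4, chr2:45110278-45110527: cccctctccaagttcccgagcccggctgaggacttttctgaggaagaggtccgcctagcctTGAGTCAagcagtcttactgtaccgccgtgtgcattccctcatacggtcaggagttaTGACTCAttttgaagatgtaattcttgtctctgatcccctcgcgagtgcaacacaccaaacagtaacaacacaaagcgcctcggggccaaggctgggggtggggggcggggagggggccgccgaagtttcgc

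The capitals in start 1 mark 1 match of TTGCNNAA, a form of the C/EBP motif that 9.57% of 32817 mouse promoters of the same length held. The capitals in start 4 mark 2 matches of TGANTCA, the motif of AP-1 factors, which 6.75% of promoters held. The general E-box CANNTG occurred in 66.2% of promoters and its form CACCTG, to which ZEB2 itself binds, in 17.2%. Neither occurred before any of the 4 starts of Zeb2, of which starts 2 and 3 overlap. None of these letters is a measured binding site. The open intervals are in mm9 coordinates and were not placed on these sequences, so no interval is assigned to a start. A position number stands for different places in mm9 and in GRCm38. The region at +147.7 kb has mm9 numbers that overlap the GRCm38 numbers of start 1, but it lies far upstream of the gene.

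Open chromatin at the locus lay downstream of the gene, at its 5' end and far upstream of it, and was absent from most of the gene body. The segment upstream of the gene held 9 of 16 pDC intervals and 12 of 20 cDC1 intervals, with 47 footprints in each cell type. The gene itself held 4 intervals in each cell type, with 14 footprints in pDC and 22 in cDC1. The bounds of the gene are approximate. For the regions from −4.4 to +2.8 kb it is therefore not known whether they lie in the gene or upstream of a start. The downstream segment held 3 intervals and 17 footprints in pDC, and 4 intervals and 18 footprints in cDC1. No interval of either cell type was listed in the lowest 75.9 kb or in the topmost 63.8 kb of the window, and the widest gap between regions, 67.2 kb, lay between the regions at −132.7 and −64.8 kb and took up much of the gene body. Each interval has a −log10 q, the significance that the peak caller MACS2 gave it, and a fold enrichment over the background of the whole library. Open intervals covered 6770 bp in pDC (1.35% of the window) and 9965 bp in cDC1 (1.99%).

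**Figure D1:**
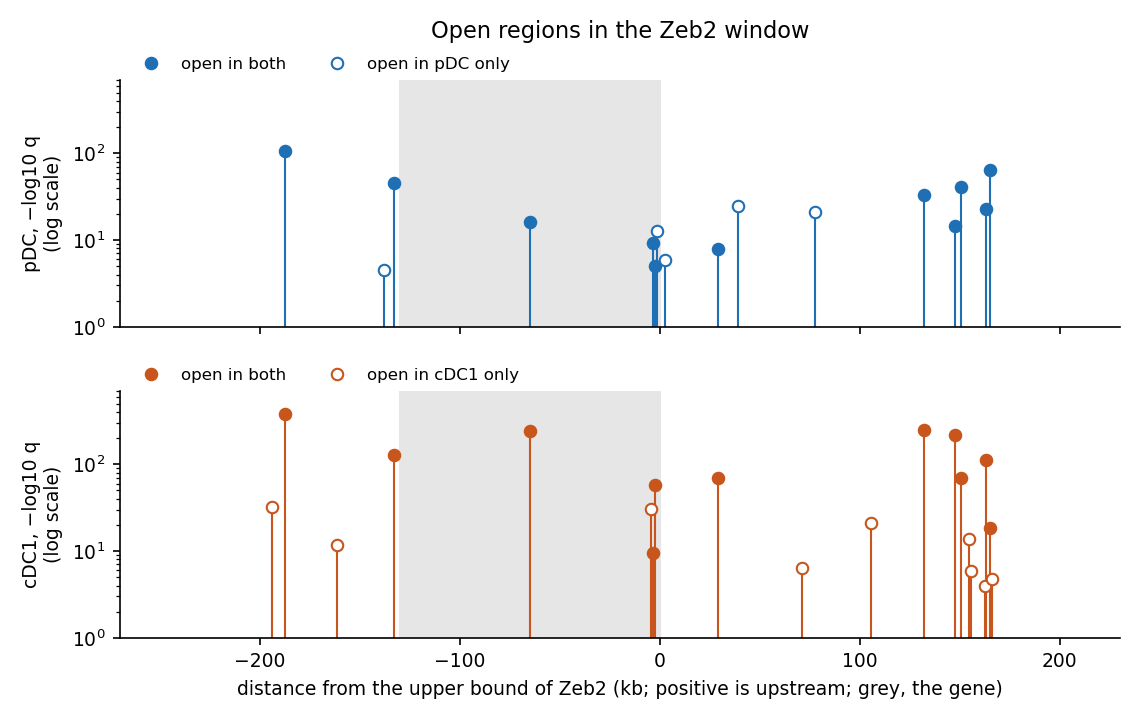
Open regions of the Zeb2 window by distance from the upper bound of the gene (x axis, kb, positive is upstream) and by −log10 q in pDC (upper panel) and cDC1 (lower panel; both on a log scale). Filled circles are regions open in both cell types, open circles regions listed in 1 of them, and grey marks the gene; the tallest stem of both panels, 107.1 in pDC and 380.7 in cDC1, stands downstream of the gene at −187.5 kb.

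Of the 25 regions, 11 were open in both cell types, 5 in pDC only and 9 in cDC1 only. Of the 16 pDC intervals, 5 overlapped no cDC1 interval, where 19.7% of all pDC intervals did so. Of the 20 cDC1 intervals, 9 overlapped no pDC interval, where 50.9% of all cDC1 intervals did so. The share of pDC intervals that were also open in cDC1 was 68.8% (95% Wilson interval 44.4 to 85.8%) at the locus and 80.3% over the whole list, and the share of cDC1 intervals also open in pDC was 55.0% (34.2 to 74.2%) at the locus and 49.1% over the whole list. Both intervals of the locus hold the value of the whole list, so with so few intervals no difference from the rest of the genome was detectable. These Wilson intervals cover counting error only and treat the open intervals as independent.

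The pDC library had fewer reads and a smaller share of them in peaks than the cDC1 library, and the tag counts below carry both differences. The median pDC footprint of all 31914 regions with a matched pair of footprints had 0.307 times the tags of its cDC1 partner. The window held 80 pDC intervals for every 100 cDC1 intervals and 89.7 pDC footprints for every 100 cDC1 footprints, where the whole lists had 62.1 and 60.9. The marker genes of the 2 cell types were not examined, because an annotation in mm9 coordinates was not used here.

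All 5 regions listed in pDC only lay between −137.7 and +77.5 kb. The strongest was at +39.0 kb (45008706 to 45009305), with a −log10 q of 24.8 and a fold enrichment of 5.75. It held 8 footprints in a row, with 114, 155, 171, 178, 180, 168, 163 and 126 tags, where the median of all pDC footprints was 100. Next came the region at +77.5 kb (45047386 to 45047710), with a −log10 q of 21.2, a fold enrichment of 6.09 and 1 footprint of 98 tags. Both ranked above the middle of the pDC list, at the 65.9th and 62.0th percentile of −log10 q.

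The other 3 pDC-only regions were weaker. Near the 5' end of the gene, the region at −1.4 kb (44968483 to 44968763) had a −log10 q of 12.6 and 3 footprints of 85, 117 and 119 tags. The region at +2.8 kb (44972730 to 44972961) had a −log10 q of 5.89 and 1 footprint of 62 tags. The weakest, at −137.7 kb (44832168 to 44832388), had a −log10 q of 4.47 and 4 footprints of 39 to 55 tags. These 3 ranked at the 48.2nd, 23.8th and 16.0th percentile of the pDC list.

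Among the 9 regions listed in cDC1 only, the strongest was at −193.9 kb (44775897 to 44776275), downstream of the gene, with a −log10 q of 31.9, a fold enrichment of 5.58 and 4 footprints of 147 to 189 tags. It stood at the 51.1st percentile of the cDC1 list. The region at −4.4 kb (44965027 to 44966125), just inside the approximate bound of the gene, had a −log10 q of 30.5 and was 1099 bp wide with 4 summits. It held 10 footprints, of which the 5 nearest the 5' end of the gene had 304 to 328 tags and the other 5 had 121 to 144.

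The next cDC1-only regions were at +105.6 kb (−log10 q 20.8, 1 footprint of 138 tags), at +154.5 kb (−log10 q 13.9, 4 footprints of 44 to 109 tags) and at −161.3 kb (−log10 q 11.7, 3 footprints of 102 to 112 tags). The remaining 4, at +70.9, +155.7, +162.5 and +166.0 kb, had a −log10 q of 3.96 to 6.31 and ranked at or below the 14.5th percentile of the cDC1 list. At the depth of the pDC library, a region missing from the pDC list was not shown to be closed in pDC. This holds for the stronger of the cDC1-only regions as well as for the weak ones.

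The 11 shared regions held the strongest intervals of the locus. In pDC the 3 largest −log10 q were 107.1 at −187.5 kb, 64.2 at +165.2 kb and 45.2 at −132.7 kb. In cDC1 the 3 largest were 380.7 at −187.5 kb, 245.4 at +132.3 kb and 239.6 at −64.8 kb. The region at −187.5 kb (44781917 to 44783144) thus led both lists of the locus, at the 95.6th percentile in pDC and the 95.8th in cDC1. It held 7 footprints in each cell type, with 214 to 340 tags in pDC and 140 to 1151 in cDC1.

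The other regions among these differed in how far their places in the lists lay apart. The region at +165.2 kb was at the 87.4th percentile in pDC and the 38.8th in cDC1. The region at −64.8 kb was at the 54.8th percentile in pDC and the 89.5th in cDC1. The region at +132.3 kb was at the 72.8th percentile in pDC and the 89.9th in cDC1, and the region at −132.7 kb at the 80.2nd in pDC and the 78.6th in cDC1. These percentiles come from lists of unequal length, and ranked among shared regions only the region at −132.7 kb was at the 76.7th percentile in pDC and the 60.9th in cDC1. Over the 11 shared regions, the percentile was higher in pDC in 4, where it was so in 24.1% of all 40721 shared regions of the genome, and the median difference was −12.4 points at the locus and −9.96 points over all shared regions.

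**Figure D2:**
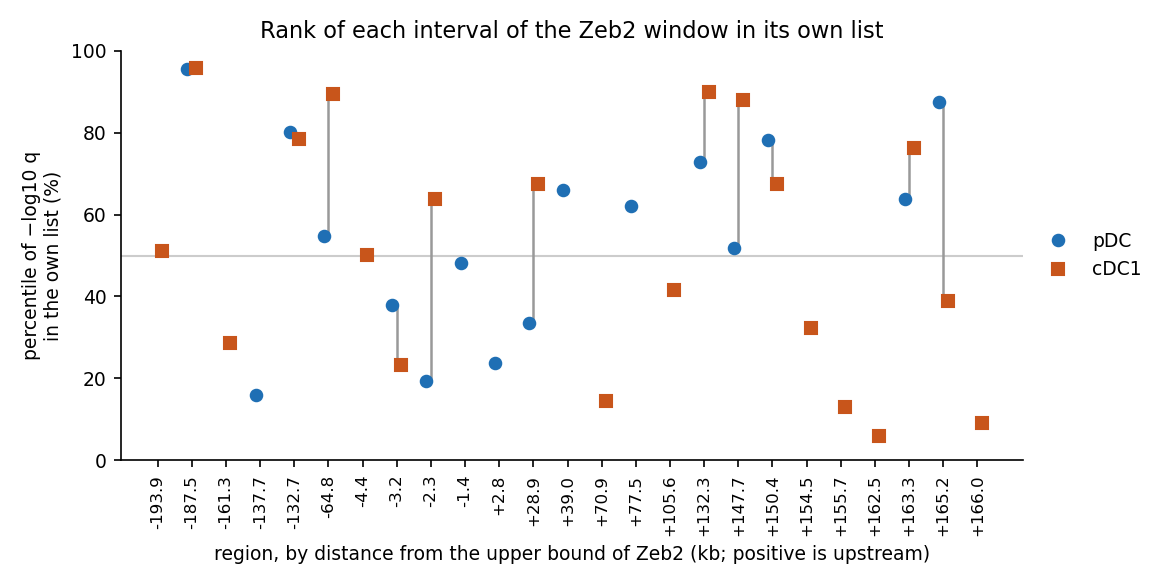
Percentile of the −log10 q of each interval of the Zeb2 window (y axis, percent) among all intervals of its own list, for each of the 25 regions in genome order (x axis, distance from the upper bound of the gene in kb). Circles are pDC, squares are cDC1, and grey lines join the values of a region open in both; the line at +165.2 kb, with pDC at 87.4 and cDC1 at 38.8, is the longest.

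The region at +165.2 kb (45134918 to 45135492) had the largest difference in favour of pDC by tags, by fold enrichment and by percentile, which come from the same libraries. Its 8 pDC footprints had 84, 247, 252, 244, 298, 298, 299 and 225 tags, and its 6 cDC1 footprints had 110, 137, 144, 143, 154 and 155 tags. All but 1 of the pDC footprints thus had more tags than any cDC1 footprint, although the pDC library was the shallower. It was the only shared region of the window in which the paired tags before scaling were higher in pDC, which held for 1 of 9 regions here and for 4.39% of all regions. It was also the only one with a higher −log10 q in pDC, 64.2 in pDC against 18.3 in cDC1, which held for 1 of 11 shared regions here and for 8.99% of all.

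To compare the cell types, the tags of the matched footprint pair with the most tags in each region were taken, and the ratio of pDC to cDC1 was divided by the median ratio of all regions. At +165.2 kb the pair had 298 tags in pDC and 155 in cDC1, which gave a scaled ratio of 6.26 (exact 95% interval 5.14 to 7.65). With scaling by all reads of the libraries in place of the median it was 3.36, which the interval does not cover. By the median scaling, 1.13% of the 31914 regions had a larger one, but the region was named as the largest of the window and not beforehand. The 5 pairs of the region gave 5.56 to 6.30, but footprints a few bases apart share tags and are not independent. The fold enrichment was 7.54 in pDC and 3.65 in cDC1, a scaled ratio of 2.99, which 1.92% of shared regions exceeded.

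The region at −64.8 kb (44904769 to 44905657), inside the gene, stood at the other end. It held 1 pDC footprint with 89 tags, and 6 cDC1 footprints with 602, 719, 743, 760, 681 and 625 tags. The pDC interval was 290 bp wide and had 1 summit, and the cDC1 interval was 889 bp wide and had 2. The pair had 89 tags in pDC and 719 in cDC1, a scaled ratio of 0.403 (0.320 to 0.503). The region was named for the smallest ratio of the window, and 4.96% of all regions had a smaller ratio. With scaling by all reads it was 0.216. The fold enrichment was 4.76 in pDC and 15.1 in cDC1, a scaled ratio of 0.457, but with the mean over the summits of an interval in place of the largest the ratio was 0.729 and no longer 2-fold.

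Past a 2-fold limit, 1 of 9 regions with a pair was higher in pDC, where 12.4% of all regions were, and 1 of 9 was higher in cDC1, where 9.05% of all were. By fold enrichment, 1 of 11 was higher in pDC, where 6.34% of all were, and 2 of 11 were higher in cDC1, where 5.8% of all were. The additional region was at +147.7 kb (45117397 to 45117907 in mm9), named here after its values were seen. It had a fold enrichment of 4.28 in pDC and 12.9 in cDC1 and a scaled ratio of 0.480. It had no matched footprint pair, and its highest tag count was 89 in pDC and 679 in cDC1. Counts this small cannot be told apart from the shares of the whole lists.

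**Figure D3:**
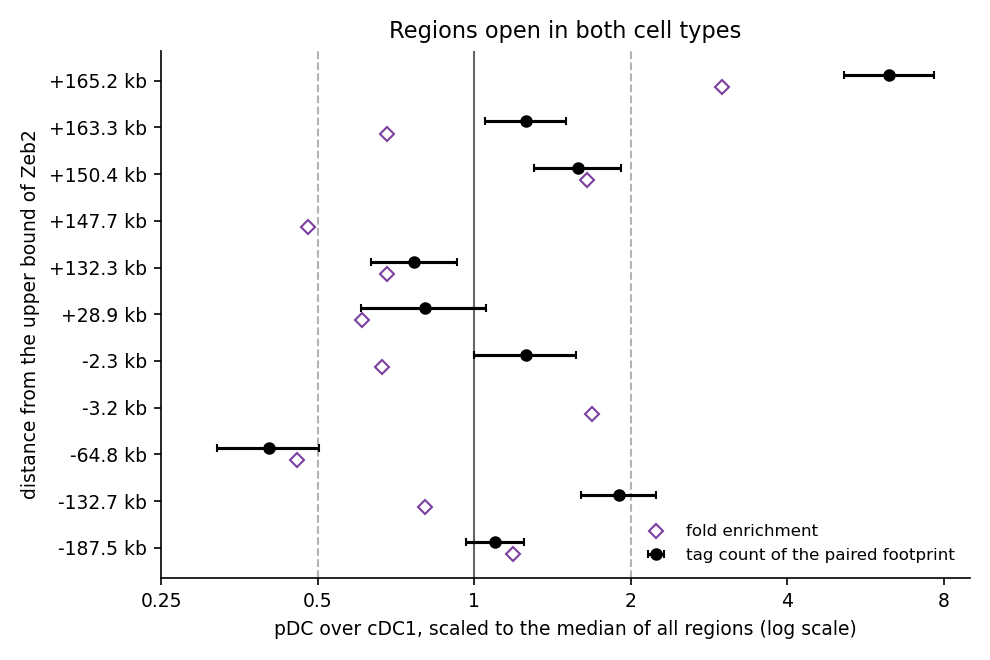
Ratio of pDC to cDC1, scaled to the median of all regions (x axis, log scale), in the 11 regions open in both cell types (y axis, distance from the upper bound of Zeb2 in kb). Black circles are tag counts of the matched footprint pair with exact 95% intervals, open diamonds are fold enrichments, and dashed lines mark a 2-fold difference; at +165.2 kb both measures, 6.26 and 2.99, lie beyond the line on the pDC side.

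The other 7 regions with a pair had scaled tag ratios between 0.767 and 1.90. At −132.7 kb (44837052 to 44837593) the pair had 231 tags in pDC and 397 in cDC1, a scaled ratio of 1.90 (1.60 to 2.23). At +150.4 kb (45120243 to 45120651) it had 162 tags in pDC and 333 in cDC1, a ratio of 1.58 (1.31 to 1.92). At +163.3 kb (45133076 to 45133568), less than 2 kb from the region with the largest ratio, it had 173 tags in pDC and 448 in cDC1, a ratio of 1.26 (1.05 to 1.5). The intervals of these 3 lay above 1, but with scaling by all reads the ratios were 1.02 at −132.7 kb, 0.849 at +150.4 kb and 0.674 at +163.3 kb, so the direction of the last 2 turned with the scaling.

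Closer to 1 were the region at −2.3 kb (44967512 to 44967952), with 111 tags in pDC and 288 in cDC1 and a ratio of 1.26 (0.999 to 1.57), and the leading region at −187.5 kb, with 326 tags in pDC and 967 in cDC1 and a ratio of 1.10 (0.966 to 1.25). The region at +28.9 kb (44998605 to 44999129) had 67 tags in pDC and 272 in cDC1, a ratio of 0.802 (0.605 to 1.05). These 3 did not differ from the genome median beyond counting error. The region at +132.3 kb (45101967 to 45102623) had 137 tags in pDC and 582 in cDC1, and its ratio of 0.767 (0.632 to 0.925) was below 1.

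The median scaled tag ratio of the 9 regions was 1.26, with quartiles of 0.802 and 1.58, where the quartiles of all regions were 0.759 and 1.41. The ratio was above 1 in 6 of the 9, but when the tags were scaled by all reads of the libraries in place of the median it was above 1 in only 2 of them, at −132.7 and +165.2 kb. Fold enrichment gave a lower median scaled ratio, 0.679 over the 11 shared regions. At −132.7, −2.3 and +163.3 kb the tag ratio was above 1 and the fold enrichment ratio, 0.804, 0.664 and 0.679, below it. At −187.5, +150.4 and +165.2 kb both were above 1, and at −64.8, +28.9 and +132.3 kb both were below 1.

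The 5' end of the gene was a run of 5 narrow to broad regions within 7.94 kb, from −4.4 to +2.8 kb, with 4 intervals and 14 footprints in pDC and 3 intervals and 16 footprints in cDC1. The pDC intervals here were modest, with a −log10 q of 4.98 to 12.6, and only that at −1.4 kb was above 10. At −3.2 kb (44966611 to 44966971), chosen for its place and not by the rule, 5 pDC footprints of 78 to 111 tags and 1 cDC1 footprint of 135 tags were listed, none of them shared. The −log10 q there was 9.14 in pDC and 9.38 in cDC1, and the fold enrichment 2.80 in pDC and 2.40 in cDC1, a scaled ratio of 1.69. The region had no matched pair, and its largest tag counts, 111 in pDC and 135 in cDC1, came from footprints at different places. Scaled to the median ratio of the largest tag counts over all regions, they gave 2.66 (2.05 to 3.45). The other shared region without a pair, at +147.7 kb, had 0.424 (0.336 to 0.530) by the same measure. Neither value was computed with scaling by all reads. At −2.3 kb the −log10 q was 4.98 in pDC and 58.1 in cDC1, which put it at the 19.3rd percentile in pDC and the 63.9th in cDC1.

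Far upstream, 8 regions stood within 18.8 kb, from +147.7 to +166.0 kb, a group bounded after its values were seen. In pDC 4 intervals with 24 footprints were listed there, and in cDC1 8 intervals with 34 footprints. No region of this group was open in pDC only, where 11.0% of all regions were, and 4 of the 8 were open in cDC1 only, where 45.5% of all were. Neighbours within the group differed in direction. At +147.7 kb the fold enrichment was 2.08-fold higher in cDC1 after scaling, and at +165.2 kb it was 2.99-fold higher in pDC.

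Footprints, the short stretches within an open interval where bound protein is inferred from fewer cuts, were compared by position. At the locus, 29 of 78 pDC footprints (37.2%, 95% Wilson interval 27.3 to 48.3%) had at least 50% of their bases in a cDC1 footprint, where 40.7% of all pDC footprints did. Of the cDC1 footprints, 26 of 87 (29.9%, 21.3 to 40.2%) lay in a pDC footprint by the same rule, where 26.9% of all did. Within the regions open in both cell types the shares were 47.5% for pDC and 52.0% for cDC1 at the locus, where they were 48.4% and 45.1% over all such regions. The Wilson intervals of the shares over all footprints of the locus hold the values of the whole lists. They treat footprints as independent, which footprints of the same region are not, so they are too narrow.

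Footprints had a median width of 17 bp in both cell types, from 5 to 59 bp in pDC and from 5 to 54 bp in cDC1. An interval of the locus held 4.88 footprints on average in pDC and 4.35 in cDC1, where the averages of the whole lists were 6.03 and 6.14. The median footprint had 125.5 tags in pDC and 255 in cDC1, where the medians of the whole lists were 100 and 212. The lowest and highest tag counts were 24 and 340 in pDC, and 44 and 1151 in cDC1.

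Of the 21 matched pairs of footprints, 6 had the same start and the same end in both cell types, where 21.0% of all 91319 pairs did. They lay in 4 regions, namely at −2.3 kb (44967598 to 44967624), +28.9 kb (44998893 to 44998930 and 44998932 to 44998937), +132.3 kb (45102358 to 45102366) and +165.2 kb (45135164 to 45135178 and 45135180 to 45135187). At +165.2 kb the 2 footprints with identical bounds had 298 and 298 tags in pDC and 154 and 155 in cDC1. In that region 3 pDC footprints, with 84, 299 and 225 tags, and 1 cDC1 footprint, with 110 tags, were not shared. At −64.8 kb the single pDC footprint (44904988 to 44904997) was shared, and 5 cDC1 footprints around it were not.

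**Figure D4:**
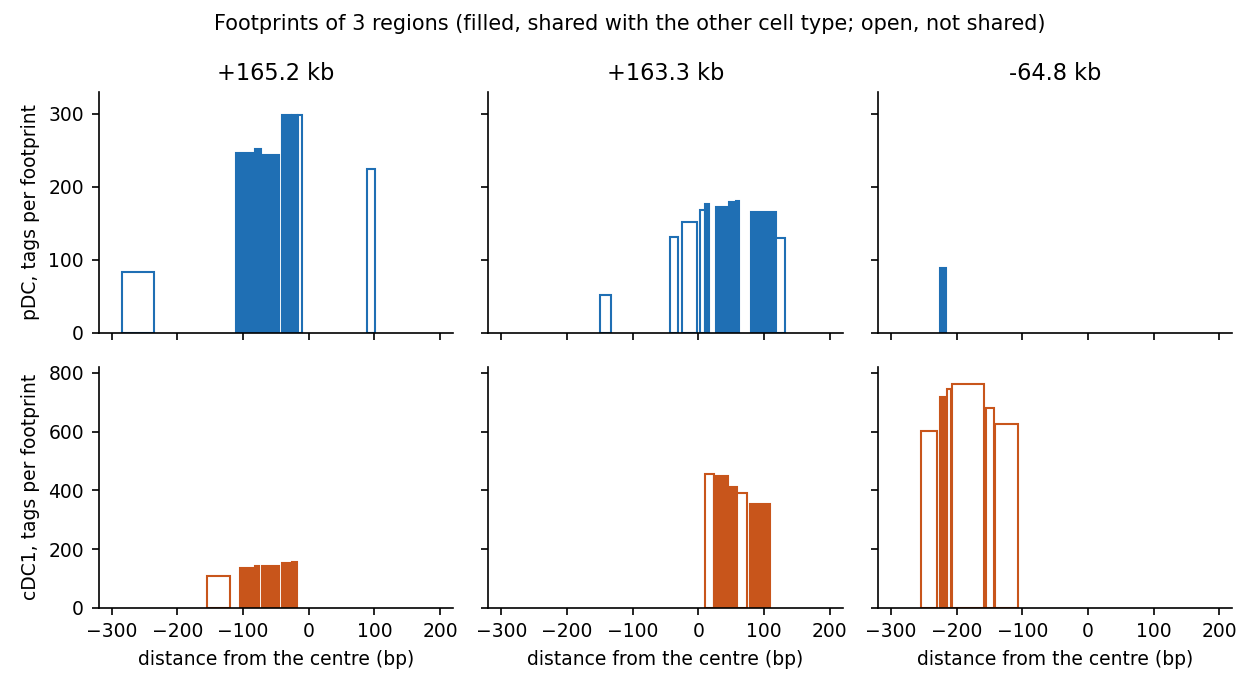
Tags per footprint (y axis) in 3 regions of the Zeb2 window by distance from the centre of the region (x axis, bp), with pDC in the upper panels and cDC1 in the lower panels; the scales differ between the cell types. Each bar is a footprint as wide as its bases, filled if at least 50% of them lie in a footprint of the other cell type; at +165.2 kb the tallest pDC bar reaches 299 and the tallest cDC1 bar 155, and at −64.8 kb they reach 89 and 760.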

How the data were processed

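Omni-ATAC-seq of 2 pDC and 2 cDC1 samples was analysed from the peak list and the footprint list of each cell type. The authors merged the samples of a cell type before footprinting, and the methods do not say whether peaks were called on merged samples. The submitters' processing notes name Trim Galore, Bowtie2, SAMtools, MACS2 and the build mm9, with no version given in the sources used here. The build was checked on the lists, whose positions run past the GRCm38 end of 8 of 21 chromosomes. Each deposited peak line is a MACS2 summit with its fold enrichment, a ratio over the background of the whole library since the authors ran MACS2 without a local background, and its −log10 q. The footprint lists are those of HINT-ATAC, which models the cleavage preference of Tn5, and the deposited value of a footprint is a whole number that was taken for its unscaled tag count. The deposited score of a peak, its −log10 p and the place of its summit were not needed for the comparisons.

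The methods describe a filter of peaks at a q-value above 10. The deposited peak lists go down to a −log10 q of 1.30 in both cell types and were used whole. Lines of equal bounds were merged to 1 interval, which took the highest −log10 q and the highest fold enrichment among its summits. An overlap of 1 bp made intervals shared, and footprints were shared at 50% of their bases in 1 footprint of the other cell type. Footprints were paired 1 to 1 at 50% of the bases of both, the pair with the most tags stood for its region, and ratios of pDC to cDC1 were divided by their median over all regions. A region was called at 2-fold or more. Shares have 95% Wilson intervals and tag ratios exact conditional binomial 95% intervals, both for counting error only. The Wilson intervals treat open intervals and footprints as independent. For the tag ratios, reads are PCR products without molecular identifiers. The methods describe the removal of duplicate reads in the general processing of the libraries. Python 3.11.15, numpy 2.4.6, pandas 2.3.3, scipy 1.17.1 and matplotlib 3.10.9 were used, and the steps were tested on simulated data.

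The regions named were all those in pDC only, the 5 strongest by −log10 q in cDC1 only, the 5 shared regions with the largest and the 5 with the smallest tag ratio, and the 3 strongest intervals of each cell type. The window, the rule and the lists were chosen with earlier results of these data known. Motifs in footprints, open chromatin at gene starts and at marker genes were not computed, because an mm9 genome and annotation were not used here. Gene expression was not analysed here.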

Additional observations from a re-analysis of the deposited data

How the results depend on the processing

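With 1 list per cell type, no value here has a replicate error. No paired analysis was possible because 1 list of each kind was used per cell type and not 1 per sample, and for the same reason no sample could be left out. No region past 2-fold changed direction, but the tag ratios at −187.5, −2.3, +150.4 and +163.3 kb, which were above 1, were below 1 with scaling by all reads, and that at −187.5 kb also with the largest tag count and with pairs at 1 bp. The largest tag ratio, at +165.2 kb, stayed past 2-fold in favour of pDC, and the smallest, at −64.8 kb, stayed past 2-fold in favour of cDC1, under every alternative tried for the tag counts. With scaling by all reads of the libraries the ratios were 3.36 at +165.2 kb and 0.216 at −64.8 kb, no region was added in pDC and 3 of 9 regions were past 2-fold in cDC1, where 42.8% of all regions were. The 2-fold calls in pDC numbered 2 with scaling by reads in peaks (16.2% of all regions), 2 with the largest tag count of each cell type (13.7%) and 2 with the cDC1 footprint list limited to the length of the pDC list (6.35%). The calls in cDC1 numbered 2 with the largest tag count (10.4% of all regions) and 2 with pairs at 1 bp (9.85%). Fold enrichment ratios without scaling were 2.07 at +165.2 kb and 0.316 at −64.8 kb, with 6 of 11 regions past 2-fold in cDC1, where 8156 of 40721 shared regions were. With the mean over the summits of an interval they were 2.94 and 0.729, with 2 calls in pDC (6.44% of all) and 1 in cDC1 (6.02%).

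When the cDC1 list was limited to the strongest intervals, as many as in the pDC list, 13 cDC1 intervals remained in the window and 76.9% of them were shared. With the footprint list limited in the same way, 51 cDC1 footprints remained and 45.1% were shared. At 90% of bases, 20.5% of pDC and 18.4% of cDC1 footprints were shared. The shares of the whole lists under these limits are not given here, so these values do not set the locus apart from the genome. In an alternative chosen after seeing the data, ranks among shared regions only, 6 of 11 regions ranked higher in pDC, in place of 4 of 11 by ranks in the whole lists. Over all shared regions of the genome, ranks of this kind have the same mean in both cell types by construction. Depth limits the regions listed in 1 cell type, and a region listed in cDC1 only, weak or strong, was not shown to be closed in pDC.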
